A study of Macaca mulatta with 8 samples.

Results

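The inflammasome and interleukin-1 genes described here were found by gene symbol, and 9 of the 10 symbols asked for were among the 26533 features counted in each library. They are the sensors NLRP3, AIM2 and NLRP1, the adaptor PYCARD, the cytokines IL1A, IL1B and IL18, the receptor antagonist IL1RN, and IL6. CASP1 was not analysed here.

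Inflammasomes are protein assemblies that form in the cytosol when a sensor meets its trigger, which is cell stress and ion efflux for NLRP3, double-stranded DNA for AIM2, and microbial proteases or long double-stranded RNA for NLRP1. Through the adaptor ASC, the product of PYCARD, they activate caspase-1, which cuts the inactive precursors of IL-1β and IL-18 and the pore-forming protein gasdermin D. IL-1α and IL-1β signal through the same receptor, the IL1RN product occupies that receptor without signaling, and IL-6 is a cytokine commonly induced downstream. In the retina the resident myeloid cells are the microglia. Transcript counts do not report whether an inflammasome was assembled or a precursor was cut.

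Single-cell RNA sequencing was done on 8 retinal punches from 2 male rhesus macaques, NHP1 (age 5) and NHP2 (age 6), with 1 right-eye and 1 left-eye library for each kind of area. From NHP2 there were uninjected areas, blebs of subretinal AAV8-GRK1-hRPGR, and blebs of subretinal AAV8-GRK1-mScarlet, and from NHP1 there were areas labelled uninjected only. GRK1 is a photoreceptor promoter that drove human RPGR or the fluorescent protein mScarlet, and the study's methods gave the vectors at different doses. By the same methods NHP1 eyes had received AAV2-CAG-hRPE65 in blebs and its libraries here are labelled as areas outside them. Every eye of both animals had a vitrectomy and received subtenon triamcinolone and a topical ointment with dexamethasone and antibiotics. Left eyes also received repeated intravitreal adalimumab, an antibody to TNF-α. All eyes were harvested at a single time, weeks after injection. The 6 libraries of NHP2 are areas of both eyes of 1 animal, so each p-value below measures the spread between those libraries and not between animals, vector cannot be told apart from dose, and anti-TNF-α treatment cannot be told apart from eye.

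The 3 vector transgenes were counted as features of their own, and they went against the label of 2 libraries. The human RPE65 transgene was found in 45.8% of cells of the left library labelled NHP1 uninjected (351 CPM in cells and 452 CPM in free RNA, where CPM is unique molecular identifiers (UMIs) scaled to 1000000 UMIs of the same cells or barcodes) and in 0.0607% of cells of the right one. The hRPGR transgene was found in 17.3% of cells of the right library labelled NHP2 uninjected (134 CPM in cells and 300 CPM in free RNA), in 0 of 10924 cells of the left one (which allows up to 0.0275% of cells with a UMI), in 95.1% and 65.9% of cells of the right and left hRPGR blebs, and in 4.05% of cells of the right mScarlet bleb. The mScarlet transgene was found in 42.8% and 36.2% of cells of its own blebs and in at most 0.280% elsewhere. Uninjected means so labelled from here on, and some log2 differences that rest on the right uninjected area of NHP2 are also given without it.

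After filtering and doublet removal, the libraries held 8831 to 13261 cells and 56783364 to 80359333 UMIs in them, with a median of 4534 to 5794 UMIs per cell. Libraries shared at most 2.16% of the cell barcodes of the smaller library. Of 64 clusters, 42 were named by marker genes as retinal or immune classes, and 22, with 30.2% of cells, stayed unnamed. In 16 of the unnamed clusters the rod markers scored highest. The unnamed share differed by area, at 22.2% and 41.1% of cells in the right and left uninjected areas of NHP2. It was 31.4% and 24.5% in the hRPGR blebs, against 11.7% and 10.1% in the mScarlet blebs. The myeloid-like class consisted of cluster 33 (812 cells, median 13891.5 UMIs, 16 of 16 myeloid markers raised, led by C3, C1QC, C1QA, C1QB and CCL3) and cluster 45 (954 cells, median 2134.5 UMIs, 15 markers raised, led by the same complement genes and TYROBP). It held 31 and 115 cells in the right and left libraries of NHP1, 84 and 81 in the uninjected areas of NHP2 and 391 and 140 in the hRPGR blebs, against 491 and 433 in the mScarlet blebs. Levels of a class are CPM over the UMIs of that class in a library. The 5′ kit tags 1 end of each transcript, so CPM values of different genes are not scaled by transcript length.

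Across cell classes, 7 of the 9 genes were highest in the myeloid-like class, which is microglia together with any infiltrating macrophages or dendritic cells. The exceptions were AIM2, as high in lymphoid cells, and IL6, highest in mural-like cells, the pericytes and smooth muscle of vessels. Free RNA, measured in barcodes of 100 to 1000 UMIs, set the background for each gene.

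**Figure D1:**
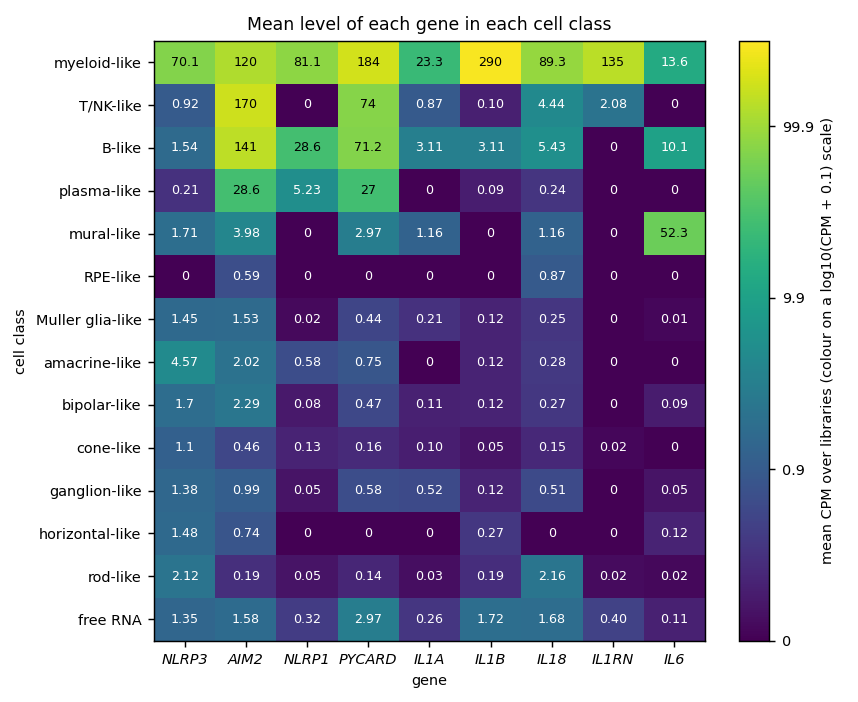
Mean level of each of the 9 genes (CPM) in each cell class and in free RNA, over the libraries with enough UMIs of that class. The myeloid-like class is highest for 7 genes, AIM2 is as high in T/NK-like and B-like cells, and IL6 has a mean of 52.3 CPM in mural-like cells.

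Among the sensors, NLRP3 (ENSMMUG00000005946, chr1:1562863-1596246, minus strand in the RefSeq annotation of Mmul_10) was at 70.1 ± 45.7 CPM in myeloid-like cells (SD, n = 8 libraries), and at 55.3 ± 6.61 (n = 6) without the 2 libraries whose transgene went against the label. It was followed by amacrine-like cells at 4.57 ± 2.14 and rod-like cells at 2.12 ± 0.64, with free RNA at a mean of 1.35. Myeloid-like cells held 54.4% of its UMIs in named cells, and the far more numerous rods 30.0%. AIM2 (ENSMMUG00000004492, chr1:91777410-91902069, plus strand) was at 170 ± 50.2 CPM in T/NK-like cells (n = 7), 141 ± 59.8 in B-like cells (n = 3) and 120.5 ± 34.4 in myeloid-like cells (n = 8). The ranges of these 3 classes overlapped, and plasma-like cells followed at 28.6 ± 19.7. The annotated span of AIM2 overlaps other genes on its own strand, so reads from them could be counted as AIM2. NLRP1 (ENSMMUG00000030453, chr16:5314800-5370299, minus strand) was at 81.1 ± 19.0 CPM in myeloid-like cells, which held 91.7% of its UMIs in named cells, and at 28.6 ± 12.8 in B-like cells. In T/NK-like cells NLRP1 had 0 of 4802377 UMIs (in the largest of these libraries, the left mScarlet bleb, 3 UMIs would have been 1.29 CPM), and its span also overlaps 1 uncharacterized gene on the same strand.

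The adaptor PYCARD (ENSMMUG00000051859, chr20:28633640-28634953, minus strand) was at 184 ± 35.0 CPM in myeloid-like cells, at 74.0 ± 32.4 in T/NK-like cells and at 71.2 ± 23.1 in B-like cells. The 2 lymphoid classes overlapped each other, plasma-like cells were at 27.0 ± 4.33 (n = 5), and no other class had a mean above 2.97.

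The cytokine IL1B (ENSMMUG00000061716, chr13:16005461-16011323, minus strand) was at 290 ± 131 CPM in myeloid-like cells, with the next class, B-like cells, at 3.11 and free RNA at 1.72. IL1A (ENSMMUG00000052787, chr13:15948769-15959827, minus strand) was at 23.3 ± 11.7 CPM in myeloid-like cells and at most 3.11 in any other class. The antagonist IL1RN (ENSMMUG00000013014, chr13:16298692-16314460, plus strand), which lies on the same chromosome, was at 135 ± 68.0 CPM. Myeloid-like cells held 98.6% of the UMIs of IL1B in named cells, 91% of those of IL1A and 97.8% of those of IL1RN. The T/NK-like class had a mean of 2.08 CPM for IL1RN, but 33 of its 34 UMIs came from 1 cell of the left mScarlet bleb.

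IL18 (ENSMMUG00000064111, chr14:105282858-105307586, minus strand) was at 89.3 ± 26.5 CPM in myeloid-like cells, and at 5.43 in B-like, 4.44 in T/NK-like and 2.16 ± 0.77 in rod-like cells. Rods held 25.9% of its UMIs in named cells, although free RNA was at a mean of 1.68 CPM. Bipolar-like cells were at 0.27 CPM.

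IL6 (ENSMMUG00000019983, chr3:92381581-92386259, minus strand) was at 52.3 ± 52.6 CPM in mural-like cells (n = 7) on 82 UMIs, at 13.6 ± 12.1 in myeloid-like cells and at 10.1 in B-like cells. Few mural-like cells carried it. There were 35 UMIs in 10 of 55 cells of the left NHP1 library, 25 UMIs in 7 of 26 cells of the left uninjected area of NHP2, 15 UMIs in 2 of 12 cells and 3 UMIs in 2 of 10 cells of the right and left hRPGR blebs, and 4 UMIs in 2 of 19 cells of the left mScarlet bleb. No IL6 UMI was found in mural-like cells of the right uninjected area (16 cells) or the right mScarlet bleb (13 cells), where 3 UMIs would have been 15.1 and 12.2 CPM. The mural-like values spanned 0 to 116.6 CPM and overlapped the myeloid-like ones.

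In the myeloid-like class the genes were then compared between areas of NHP2, which asks whether the level per myeloid UMI differed in the blebs. IL1B was at 322 and 470.4 CPM in the right and left uninjected areas and 372 and 281 CPM in the hRPGR blebs, against 329 and 312 CPM in the mScarlet blebs. The bleb values lay within or below the uninjected ones. In NHP1 IL1B was at 23.2 CPM on 4 UMIs in the right eye and 211 CPM in the left eye. IL1A was at 3.62 and 40.7 CPM in the uninjected areas and 21.4 and 23.8 in the hRPGR blebs, against 33.0 and 29.5 in the mScarlet blebs. Every bleb value thus lay between the 2 uninjected ones, which rested on 2 and 21 UMIs. In the left hRPGR bleb 16 of 26 UMIs came from 1 cell. Without the 1 richest cell of each library the IL1A levels were 1.85 and 29.2, 18.4 and 9.31, and 30.3 and 26.7 CPM in the same order of areas. The right mScarlet bleb was then above both uninjected areas.

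IL18 was at 76.0 and 75.5 CPM in the uninjected areas and 74.1 and 79.5 in the hRPGR blebs, against 85.8 and 101 in the mScarlet blebs. Both mScarlet values were above both uninjected values, while the highest IL18 level, 151 CPM, was in the right NHP1 library of 31 myeloid-like cells. That level rested on 26 UMIs, of which 14 came from 1 cell. Without the 1 richest cell of each library it was 83.0 CPM, against 82.6 and 97.9 CPM in the mScarlet blebs. PYCARD ranged from 149 to 255 CPM over the 6 NHP2 libraries, with both ends of that range in the right eye, the higher in the uninjected area and the lower in the hRPGR bleb.

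NLRP3 was at 47.0 and 61.9 CPM in the uninjected areas and 61.8 and 53.9 in the hRPGR blebs, against 49.1 and 58.8 in the mScarlet blebs, and these groups overlapped. The left NHP1 library stood apart at 182 CPM on 119 UMIs, of which 31 came from 1 cell. AIM2 was at 68.7 and 110.3 CPM in the uninjected areas and 103 and 117 in the hRPGR blebs, against 132 and 103 in the mScarlet blebs. NLRP1 lay between 65.1 and 118 CPM over the NHP2 libraries, both ends being uninjected areas.

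IL1RN was at 213 and 226 CPM in the uninjected areas and 101 and 166 in the hRPGR blebs, against 153 and 87.6 in the mScarlet blebs. All 4 bleb values were below both uninjected values, of which 35 of 118 and 40 of 117 UMIs came from 1 cell each. Without the 1 richest cell of each library the levels were 153 and 163, 89.4 and 137, and 141 and 76.7 CPM in the same order of areas. As a share of the summed UMIs of IL1B and IL1RN, the antagonist made up 39.9% and 32.5% in the uninjected areas and 21.3% and 37.2% in the hRPGR blebs, against 31.8% and 21.9% in the mScarlet blebs, and these shares overlapped. IL6 was sparse, with 8 and 3 UMIs in the uninjected areas and 52 and 42 in the hRPGR blebs, against 65 and 60 in the mScarlet blebs, which is 14.5 and 5.81, 20.6 and 38.4, and 15 and 11.8 CPM. The richest cell of each library held 3 and 2, 17 and 25, and 17 and 16 of these UMIs. Without that cell the IL6 levels were 9.24 and 1.97, 14.0 and 15.8, and 11.1 and 8.72 CPM in the same order of areas.

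**Figure D2:**
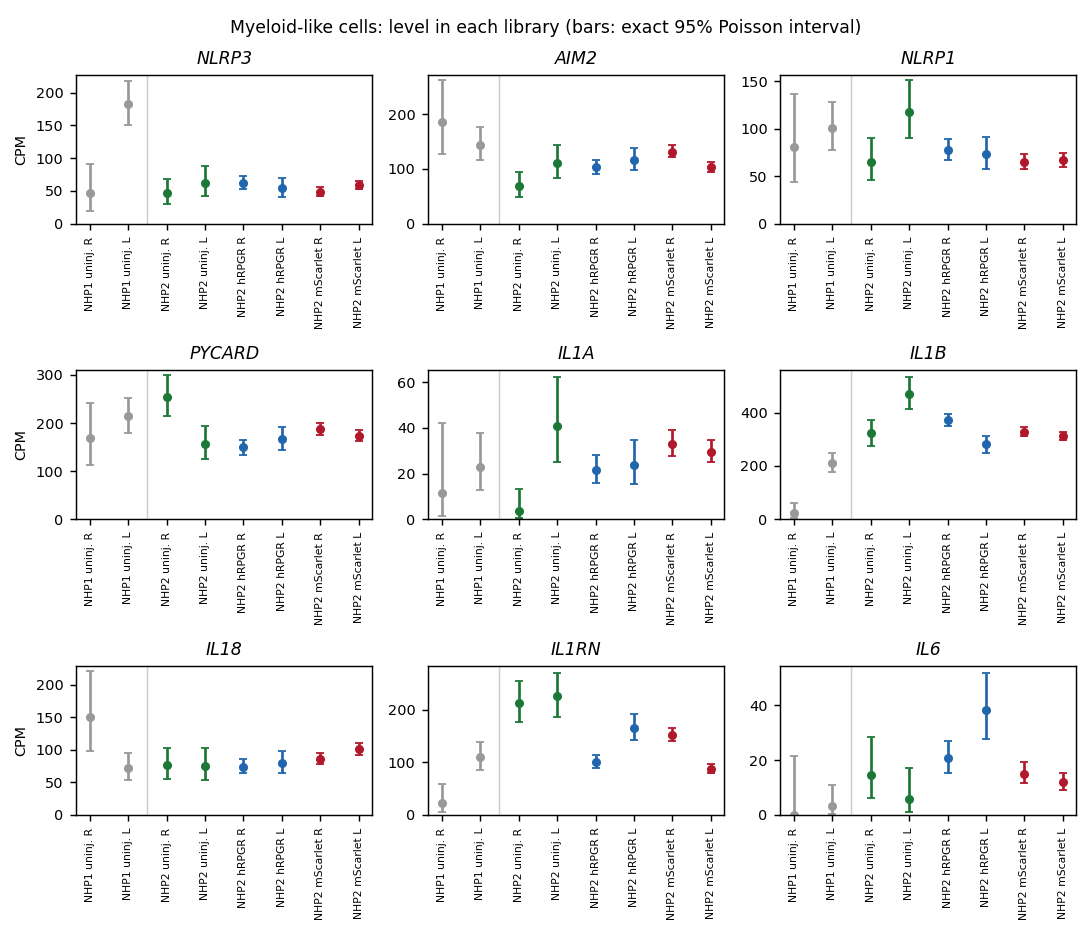
Level of each gene (CPM) in the myeloid-like cells of each of the 8 libraries, right and left eye, with exact 95% Poisson intervals that cover counting error only. IL1RN is lower in the 4 bleb libraries than in both uninjected areas of NHP2, and the other 8 genes overlap between at least one kind of bleb and the uninjected areas.

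Summed myeloid-like counts were tested with edgeR's quasi-likelihood test over 10752 genes, with Benjamini-Hochberg adjustment at 0.05, and all 9 genes passed the filter on low counts. Between mScarlet blebs and uninjected areas 0 of the 9 genes were called, where 2.79% of all genes tested were called (116 higher and 184 lower in the blebs). At an unadjusted p under 0.05, which 17.9% of all genes reached, there was 1 of the 9, IL1RN, with a log2 difference of −0.81 (SE 0.34, adjusted p = 0.260 by edgeR). The others were at log2 differences of 0.60 (SE 0.56) for IL1A, 0.47 (SE 0.26) for AIM2, 0.44 (SE 0.58) for IL6, 0.37 (SE 0.22) for IL18, 0.06 (SE 0.23) for NLRP3, −0.14 (SE 0.28) for PYCARD, −0.23 (SE 0.24) for IL1B and −0.38 (SE 0.25) for NLRP1, with edgeR adjusted p-values from 0.395 to 0.925. Without the right uninjected area, where the remaining uninjected library is assumed to vary like the other groups, the log2 differences were −0.77 for IL1RN, −0.69 for NLRP1, −0.41 for IL1B, −0.24 for IL1A, −0.06 for NLRP3, 0.23 for AIM2, 0.34 for PYCARD, 0.45 for IL18 and 1.34 for IL6. No call is drawn from that fit, as a single uninjected library is left. The signs for IL1A, NLRP3 and PYCARD thus turned when that library was left out. The median over the 9 genes was 0.06 and that over all genes tested was −0.01.

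Between hRPGR blebs and uninjected areas 0 of the 9 genes were called, where 0% of all genes were (719 genes at an unadjusted p under 0.05, and 14 called by DESeq2, none of them one of the 9). Log2 differences ran from −0.78 for IL1RN (SE 0.35, edgeR adjusted p = 0.747) to 1.38 for IL6 (SE 0.56, adjusted p = 0.739), which was the gene of the 9 with an unadjusted p under 0.05. Without the right uninjected area, the library with the hRPGR transgene in 17.3% of its cells, IL6 was at 2.27, IL1RN at −0.76, IL1A at −0.86 and NLRP1 at −0.63. These differences rest on the left uninjected library alone, so no call is drawn from them. The fit with the eye as a replicate block called 5 genes in this comparison. Between mScarlet and hRPGR blebs, the comparison of the 2 vectors, 0 of the 9 were called against 0.688% of all genes, with differences from −0.94 for IL6 (SE 0.37, edgeR adjusted p = 0.322) to 0.61 for IL1A (SE 0.44, adjusted p = 0.670). Between left and right eyes of NHP2, that is with and without adalimumab, 0 of the 9 were called against 0.0093% of all genes. The differences ran from −0.19 for PYCARD (SE 0.23) to 0.41 for IL1A (SE 0.39). None of the 9 had an unadjusted edgeR p under 0.05, where 3.0% of all genes did. Without the right uninjected area the difference was 0.066 for PYCARD (SE 0.21) and −0.0014 for IL1A (SE 0.24). DESeq2 called 0 of the 9 in each of these 4 comparisons, where it called 4.29%, 0.13%, 1.43% and 0.13% of all genes. At an unadjusted edgeR p under 0.05 there was 1 of the 9 in each of the first 3, beside 17.9%, 6.69% and 12.1% of all genes.

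Other measures of the myeloid-like cells moved between the same libraries. Immediate early genes, which rise during tissue dissociation, summed to 19286 and 24463 CPM in the uninjected areas and 12213 and 21348 in the hRPGR blebs, against 11917 and 12082 in the mScarlet blebs. Homeostatic microglial genes summed to 4149 and 2623, 1876 and 2796, and 1990 and 1784 CPM in the same order. Rod markers summed to 8334 and 5916, 5241 and 5930, and 1877 and 2095 CPM. The monocyte and neutrophil list summed to 977 and 1856, 1502 and 845, and 1629 and 1872 CPM, and the shallow cluster 45 held 44.4% to 60.4% of the myeloid-like cells and 12.9% to 26.2% of their UMIs. Their part in the differences above was not tested. Without cluster 45 the 9 genes were again not called, where 2 of 10157 genes were called for mScarlet, 0 for hRPGR and 0 between the vectors.

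The share of myeloid-like cells with a UMI was compared after thinning each cell to 3000 UMIs, which left out 33 to 206 shallower cells per NHP2 library. Over the 6 NHP2 libraries, IL1B was seen in 28.0% to 45.8% of thinned cells, PYCARD in 30.3% to 49.0%, AIM2 in 18.4% to 35.4%, NLRP3 in 14.0% to 25.0%, NLRP1 in 14.0% to 29.2%, IL18 in 17.3% to 23.1%, IL1RN in 10.8% to 20.8%, IL1A in 0% to 14.6%, and IL6 in 1.30% to 6.12%. Before thinning, IL1B was seen in 30.2% to 43.2%, PYCARD in 41.9% to 66.7% and AIM2 in 31.0% to 47.3% of cells. Bipolar-like cells, taken as a class that should lack these genes, had a UMI in at most 1.27% of thinned cells for NLRP3 and at most 0.86% for any of the other 8. Median depth before thinning was 3262 to 7480 UMIs in myeloid-like and 6526 to 7595 in bipolar-like cells.

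In the NHP2 libraries the 10% of myeloid-like cells richest in IL1B held 68.3% to 82.0% of its UMIs, and the corresponding 10% held 84.6% to 98.0% of the IL1RN UMIs. IL1RN had a UMI in only 14 of 84 and 15 of 81 cells of the uninjected areas and 45 of 391 and 31 of 140 cells of the hRPGR blebs, against 107 of 491 and 78 of 433 cells of the mScarlet blebs, so its share was in part fixed by the number of cells with a UMI. The shares were 52.9% to 70.1% for IL18 and 42.9% to 56.5% for PYCARD, and these overlapped.

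Sub-clustering of the myeloid-like cells, done without the 9 genes, gave 10 groups of cells that are described by their leading genes and were not tested. Sub-cluster 8 (255 cells, with NHSL1, CD80, IL1A and PPARG among its leading genes) had 63.6 CPM of IL1A and 36.2 CPM of IL6. It held 29.1% of the myeloid-like UMIs but 66.8% of the IL1A UMIs and 67.7% of the IL6 UMIs, with IL1RN at 183 and IL18 at 117 CPM. Sub-cluster 4 (232 cells, led by CXCL9, with CCR7 and IL12B, genes of activated antigen-presenting cells, further down) had 454 CPM of IL1B. Sub-cluster 7 (189 cells) was led by the heat-shock co-chaperone BAG3 and by TNF, with the microglial genes CX3CR1 and P2RY12 and the heat-shock genes DNAJB1 and HSPH1 further down. Pooled over libraries it had IL1RN at 219.7 CPM and NLRP3 at 80.1 CPM. By library, IL1RN in sub-cluster 7 was at 294 and 205 CPM in the uninjected areas and 311 and 309 in the hRPGR blebs, against 163 and 64.0 in the mScarlet blebs, and in sub-cluster 8 at 136 and 111 in the hRPGR blebs, against 236 and 145 in the mScarlet blebs. The order of these sub-clusters thus differed between libraries. Immediate early genes summed to 25943 CPM in it, compared with 13373 in sub-cluster 4 and 13504 in sub-cluster 8, and their part in its levels was not tested.

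Smaller groups stood apart. Sub-cluster 9 (19 cells, with the proliferation genes MKI67 and TOP2A among its leading genes) had 1093 CPM of IL1B and 121.5 CPM of IL6, all from bleb libraries. These levels rested on few cells, with an IL1B UMI in 36.8% and an IL6 UMI in 10.5% of the 19, at a median of 2719 UMIs. Sub-cluster 1 (59 cells, 44 of them from the left NHP1 library, with VSIG4, CD163, MARCO and S100A9 among its leading genes) had 206 CPM of NLRP3 and 198 CPM of AIM2. Sub-cluster 10 (8 cells, led by GZMB, with IGHM and PTCRA further down) had NLRP1 at 172 CPM and 7 of the 9 genes at 0. Sub-cluster 6 (96 cells) carried 44588 CPM of rod markers and was low in all 9 genes, and sub-clusters 2 and 3 were shallow, with median UMIs of 2127 and 1936.

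**Figure D3:**
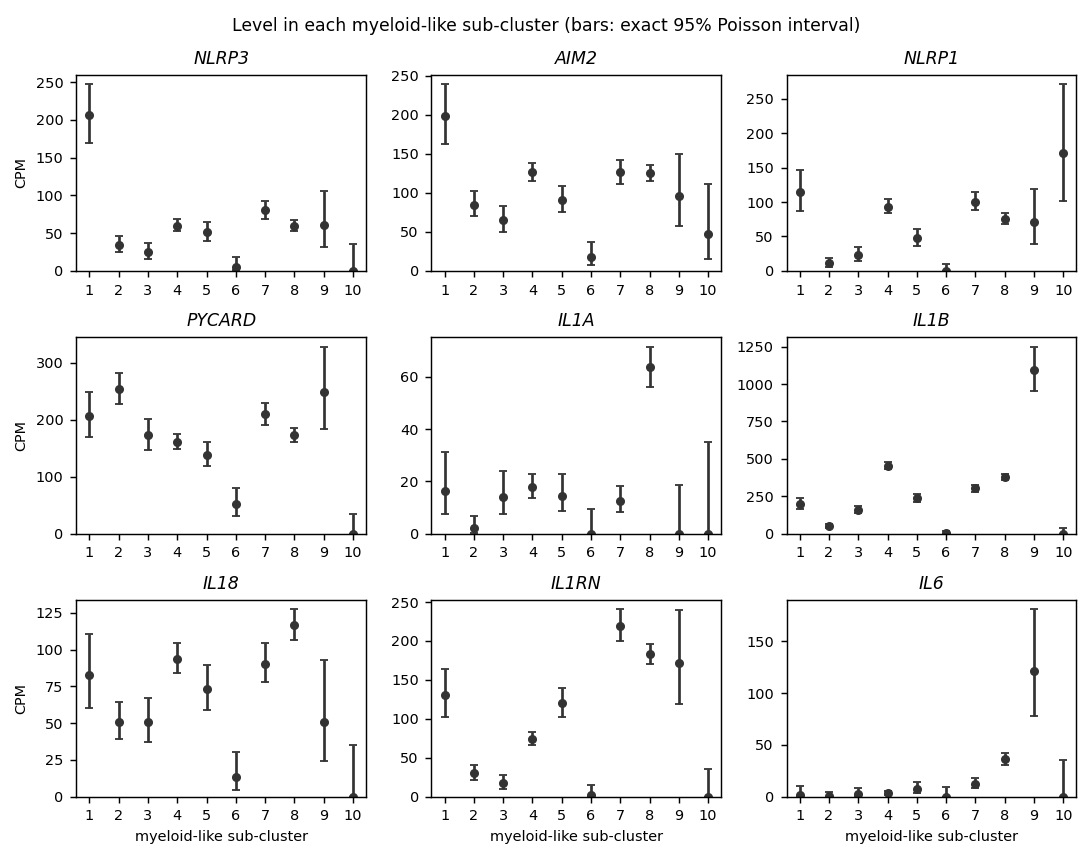
Level of each gene (CPM) in each of the 10 sub-clusters of myeloid-like cells, with libraries pooled. Among those of over 100 cells IL1A and IL6 are highest in sub-cluster 8, and IL1B is highest in the 19 cells of sub-cluster 9, 36.8% of which had a UMI of it.

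The myeloid-like class was made up of different sub-clusters in different areas of NHP2, which stands beside each level given above for the class as a whole. Sub-cluster 7 held 40.5% and 37.0% of the cells in the uninjected areas and 3.3% and 32.9% in the hRPGR blebs, against 7.9% and 6.0% in the mScarlet blebs, while sub-cluster 8 held 0% and 4.9%, 13% and 8.6%, and 18.3% and 22.2%. The shallow sub-cluster 2 held 34.5% and 2.5%, 5.9% and 25.7%, and 47.7% and 33.9%, and sub-cluster 3 held 7.1% and 35.8%, 45% and 7.9%, and 4.5% and 4.6%. Within sub-cluster 7, IL1B was at 423 and 657 CPM in the uninjected areas, 170 and 168 CPM in the hRPGR blebs (23 and 83 UMIs), and 213 and 311 CPM in the mScarlet blebs (114 and 102 UMIs). All 4 bleb values of IL1B were thus below both uninjected values in this sub-cluster. Within sub-cluster 4, IL1B was at 723 and 805 CPM in the hRPGR blebs (548 UMIs in 69 cells and 71 UMIs in 8 cells), against 397 and 342 CPM in the mScarlet blebs (451 UMIs in 65 cells and 570 UMIs in 85 cells).

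Measured over all cells of a library, 8 of the 9 genes were higher in each of the 4 bleb libraries, where myeloid-like cells were more numerous, than in both uninjected areas of NHP2. The same order held for 11.9% of 17104 genes with at least 100 UMIs. The exception was IL18, which was lowest in the left hRPGR bleb. In such totals, as in bulk tissue, more cells of a type and more RNA per cell cannot be told apart. IL1B was at 2.86 and 3.51 CPM in the uninjected areas of NHP2 and 13.9 and 5.39 in the hRPGR blebs, against 22.0 and 20.4 in the mScarlet blebs, and myeloid-like cells held 92.6% to 99.6% of its UMIs. IL1RN was at 1.90 and 1.64 CPM in the uninjected areas and 3.54 and 3.14 in the hRPGR blebs, against 10.2 and 6.14 in the mScarlet blebs. IL1A was at 0.0639 and 0.404, 0.837 and 0.526, and 2.31 and 2.11 CPM in the same order. For each of the 3 genes the groups stood in that order without overlap, as they did for 7 of the 9 genes and for 8.6% of the 17104 genes, which was not tested.

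PYCARD was at 2.62 and 1.44 CPM in the uninjected areas and 7.01 and 3.51 in the hRPGR blebs, against 15.8 and 18.6 in the mScarlet blebs, where lymphoid classes held 19.0% and 36.3% of it. AIM2 was at 1.57 and 1.78, 6.31 and 3.56, and 14.9 and 17.5 CPM. In the mScarlet blebs the lymphoid classes held 33.4% and 58.1% of the AIM2 UMIs and myeloid-like cells 58.8% and 38.5%, so that in the left eye lymphoid cells held more of it than myeloid-like cells did. T/NK-like cells numbered 24 and 37 in the uninjected areas and 106 and 35 in the hRPGR blebs, against 242 and 435 in the mScarlet blebs. The AIM2 level within them was 265 and 152, 144 and 211, and 138 and 161 CPM, and these groups overlapped.

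NLRP3 and IL18, which also had a low level in the numerous rods, differed less in total. NLRP3 was at 2.59 and 2.08 CPM over all cells in the uninjected areas and 4.17 and 3.02 in the hRPGR blebs, against 5.12 and 5.65 in the mScarlet blebs. IL18 was at 2.94 and 3.02, 4.16 and 2.87, and 6.89 and 7.47 CPM. Myeloid-like cells held 16.0% and 21.5% of the NLRP3 UMIs in the uninjected areas but 63.6% and 67.6% in the mScarlet blebs, and 22.8% and 18% of the IL18 UMIs in the uninjected areas but 82.5% and 87.8% in the mScarlet blebs. NLRP1 was at 0.655 and 0.948, 2.92 and 1.46, and 4.69 and 4.95 CPM, and IL6 at 0.128 and 0.460, 1.03 and 0.797, and 1.04 and 0.844 CPM.

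**Figure D4:**
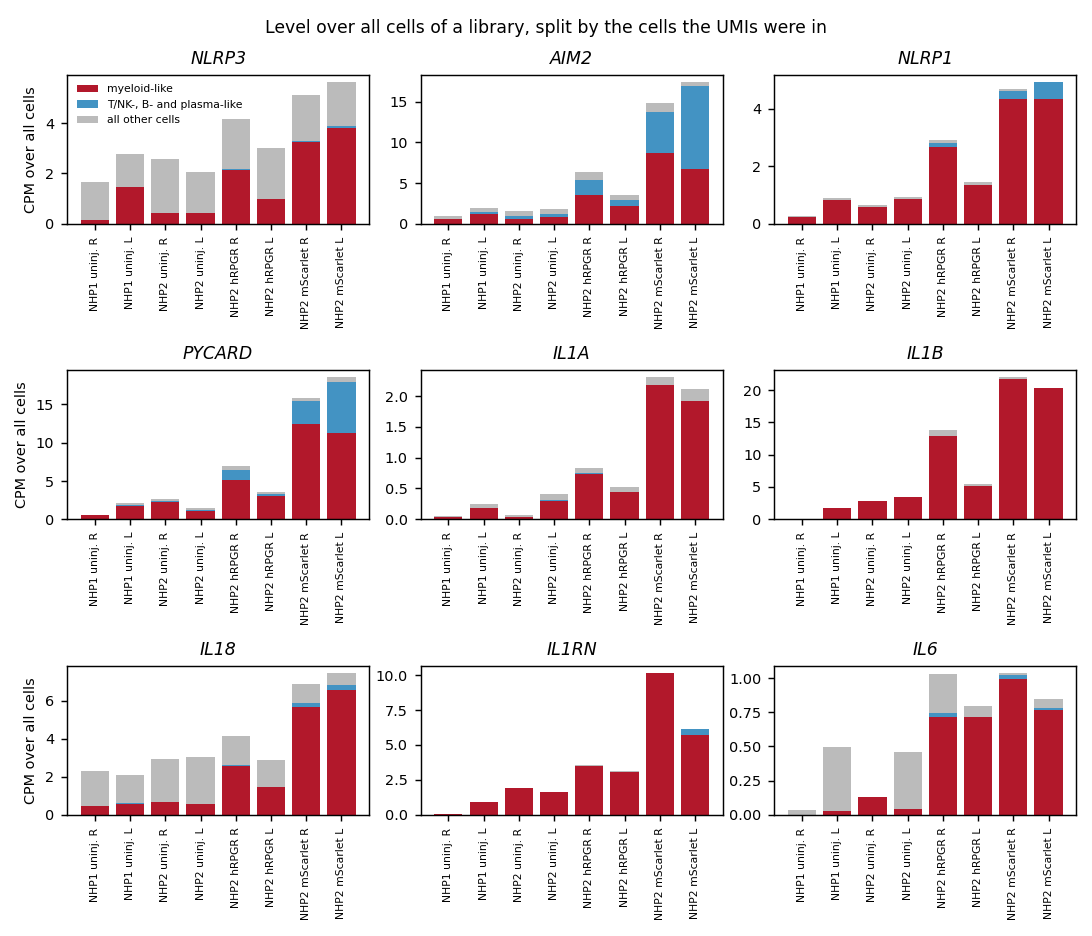
Level of each gene over all cells of a library (CPM), split by the class of cell that held the UMIs. The totals are higher in the mScarlet blebs than in the uninjected areas of NHP2, mostly as UMIs of myeloid-like cells and, for AIM2 and PYCARD, also of lymphoid classes.

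In rod-like cells, the photoreceptors that the GRK1 promoter addresses, IL18 was the only one of the 9 genes called by edgeR in any of the 10 comparisons. It was at 3.13 and 3.30 CPM in the right and left uninjected areas (95% Poisson intervals 2.56 to 3.79 and 2.61 to 4.12, on 104 and 78 UMIs), 1.98 and 1.72 CPM in the hRPGR blebs (58 and 48 UMIs), and 1.28 and 1.24 CPM in the mScarlet blebs (40 and 43 UMIs). The NHP1 libraries were at 2.19 and 2.45 CPM. The 3 groups of NHP2 did not overlap, with the uninjected areas highest and the mScarlet blebs lowest.

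Of 14420 genes tested in rods, 1.62% were called between mScarlet blebs and uninjected areas (163 higher and 71 lower), and 2 of the 9 genes, NLRP3 and IL18, passed the filter on low counts. IL18 fell in the mScarlet blebs by 1.48 on the log2 scale (SE 0.24, edgeR adjusted p = 0.0454), which is 2.78-fold lower. The rod-like cells of these areas lay in different clusters. The clustering did not leave out the transgene features and did not align the libraries, so the split by area can in part reflect these. In the uninjected areas clusters 10, 41 and 42 held 32.2%, 50.8% and 13.9% of them in the right eye and 24.5%, 35.6% and 34.9% in the left eye. In the mScarlet blebs clusters 5 and 6, both led by the mScarlet transgene, and cluster 46 held 30.7%, 18.7% and 27.0% in the right eye and 32.3%, 26.1% and 27.9% in the left eye. IL18 was at 3.61 and 3.0 CPM in cluster 41, 3.23 and 3.98 in cluster 42 and 1.77 and 0.74 in cluster 10 of the uninjected areas, and between 0.66 and 1.78 in clusters 5, 6 and 46 of the mScarlet blebs. The hRPGR blebs differed from the uninjected areas by a log2 value of −0.88 (SE 0.23, edgeR adjusted p = 0.817), with 0% of all genes called in that comparison (808 at an unadjusted p under 0.05, and 88 by DESeq2). NLRP3 in rods was at 2.44 and 2.07, 2.63 and 2.22, and 2.44 and 2.84 CPM in the same order of areas, and was not called (edgeR adjusted p = 0.842 for mScarlet and 0.997 for hRPGR).

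The IL18 call in rods was held by 7 of 13 alternative settings. With the eye as a replicate block the log2 difference was again −1.48 but the edgeR adjusted p was 0.126, and that fit called 4 genes in all. The call was also lost on leaving out any 1 library of the compared areas. Such a fit leaves 1 library in a group and cannot decide on a call. Without the right uninjected area the log2 difference was −1.46. When unnamed clusters that carried rod markers were added to the rods, the difference was −1.24 (adjusted p = 0.166). These levels were close to those of free RNA, in which IL18 was at 1.03 and 1.95 CPM in the uninjected areas and 2.94 and 1.77 in the hRPGR blebs, against 1.75 and 1.86 in the mScarlet blebs. The rod levels were therefore above free RNA in the uninjected areas and below it in the blebs, while bipolar-like cells ranged from 0 to 0.65 CPM. Rod markers summed to 53069 and 45704 CPM in the rods of the uninjected areas and 36901 and 49532 in the hRPGR blebs, against 40353 and 38532 in the mScarlet blebs, and immediate early genes to 3253 and 3475, 6189 and 4187, and 6589 and 7414 CPM. The part of these in the IL18 difference was not tested.

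**Figure D5:**
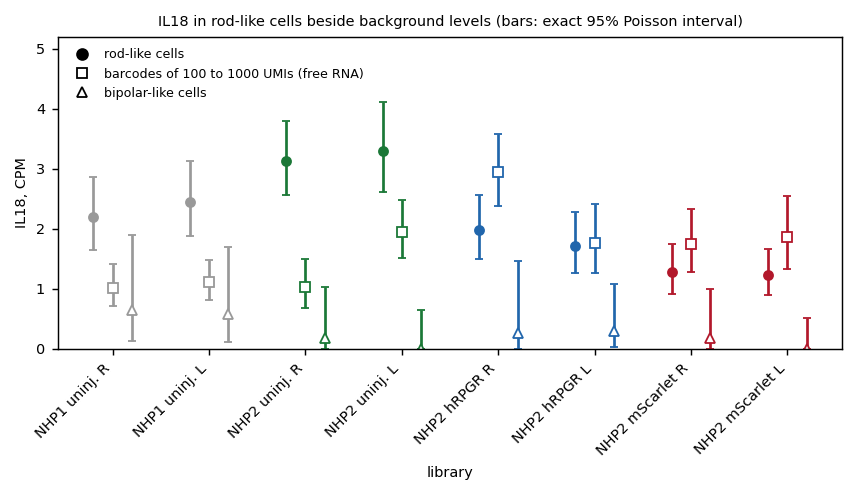
IL18 in rod-like cells of each library (CPM, with exact 95% Poisson intervals that cover counting error only), beside its level in free RNA and in bipolar-like cells. The mScarlet blebs, at 1.28 and 1.24 CPM, lie below the uninjected areas of NHP2, at 3.13 and 3.30 CPM, and below free RNA.

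In bipolar-like and Müller-like cells few of the 9 genes were high enough to be tested. NLRP3 and AIM2 passed the filter in bipolar-like cells and neither was called, where 0.87% of 12986 genes were called for mScarlet and 0.0154% for hRPGR. NLRP3 alone passed in Müller-like cells and was not called, where 0.281% of 12829 genes were called for mScarlet and 0.00779% for hRPGR. AIM2, which had not passed there with all 6 libraries, did so without the right uninjected area. With a group of 1 library the filter asks for fewer libraries with enough counts, so the AIM2 values in Müller-like cells are a description. Without that area log2 differences were 1.05 for NLRP3 and 2.30 for AIM2 (mScarlet), and 1.11 and 1.43 (hRPGR). In bipolar-like cells they were then 0.14 for NLRP3 and 0.38 for AIM2 (mScarlet), and 0.88 and −0.061 (hRPGR). All of these rest on the left uninjected library alone. With the eye as a block the bipolar hRPGR fit called 6 genes and the Müller mScarlet fit 6 genes.

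Other genes of the same pathway were counted over 6 lists of inflammasome parts, pyroptosis effectors, IL-1 family ligands and receptors, their signaling proteins and IL-6 signaling, of whose 55 genes 52 were found. In myeloid-like cells 32 were tested and edgeR called none in any of the 4 comparisons, with 9 at an unadjusted p under 0.05 for mScarlet against uninjected (17.9% of all genes), 1 for hRPGR (6.69% of all genes), 7 between the vectors (12.1%) and 2 between eyes (3.0%). DESeq2 called 1 in the first, where it called 4.29% of all genes, and 0 in the others. Among them the inflammatory caspases CASP4 and CASP5 had edgeR adjusted p-values of 0.126 and 0.267, the alarmin IL33 0.0607, and gasdermin D (GSDMD) 0.547 for mScarlet. In rods 25 were tested and edgeR called none for either vector, with 10 at an unadjusted p under 0.05 and 6 called by DESeq2 for mScarlet (24.4% and 10.6% of all genes), and 8 and 0 for hRPGR (5.6% and 0.61% of all genes). In bipolar-like cells 20 were tested and none was called by edgeR or DESeq2, with 2 at an unadjusted p under 0.05 for each vector (11.1% of all genes for mScarlet and 3.33% for hRPGR).

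In Müller-like cells, the glia that span the retina, 31 were tested and edgeR called 1 for mScarlet (0.281% of all genes) and 0 for hRPGR (0.00779%). At an unadjusted p under 0.05 there were 7 and 2 (14.6% and 3.66% of all genes), and DESeq2 called 3 and 0 (3.12% and 0.195%). The called gene was IL18BP, which encodes the secreted protein that binds and blocks IL-18. IL18BP had 2 and 1 UMIs in the right and left uninjected areas and 11 and 18 in the hRPGR blebs, against 36 and 67 in the mScarlet blebs, which is 0.427 and 0.114, 2.09 and 3.23, and 7.02 and 13 CPM. The 3 groups did not overlap, but the gene passed the filter on low counts only through the blebs, so the values are a description and its call is no support for a difference. In free RNA it was at 0.191 and 0.378 CPM in the uninjected areas, 0.510 and 0.575 in the hRPGR blebs, against 0.855 and 3.39 in the mScarlet blebs. In bipolar-like cells IL18BP was at 0.369 and 0, 0.264 and 0.596, and 2.32 and 3.24 CPM in the same order. It was not called there, and it too passed the filter only through the mScarlet blebs, so these values are a description. In myeloid-like cells it was at 19.9 and 7.74, 13.1 and 13.7, and 27.2 and 30.9 CPM. In Müller-like cells the ratio of the pooled mScarlet level to the uninjected level was 44.9, with a 95% counting interval of 14.9 to 221 on 103 against 3 UMIs, and the edgeR adjusted p was 0.0459. The adjusted p was 0.061 with the eye as a replicate block, and between 0.093 and 0.269 on leaving out any 1 library but the right uninjected area. For hRPGR against uninjected the edgeR adjusted p was 0.959.

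Of 10 NF-κB immediate target genes tested in the myeloid-like cells, 2 were called for mScarlet, beside 2.79% of all genes, and the list's median log2 difference was 0.25. They were TNF and CXCL8, an NF-κB driven cytokine and a neutrophil attractant, which both fell in the mScarlet blebs against the uninjected areas. TNF was at 753 and 847 normalised CPM in the uninjected areas and 150 and 722 in the hRPGR blebs, against 85.9 and 78.9 in the mScarlet blebs, a log2 difference of −3.28 for mScarlet (edgeR adjusted p = 0.0290). CXCL8 was at 919 and 1073, 330 and 852, and 196 and 225 normalised CPM, a log2 difference of −2.24 (adjusted p = 0.0275). Both mScarlet values were below all others for both genes. Both calls were lost on leaving out any 1 library of the 2 groups compared, the right uninjected area included. Such a fit leaves 1 library in a group and cannot decide on a call. Both were also lost with the higher doublet share, where 91 of 10205 genes were called. Without cluster 45, where 2 of 10157 genes were called, the edgeR adjusted p was 0.099 for TNF and 0.092 for CXCL8. The immediate early genes given above moved in the same direction, as did the share of sub-cluster 7, in which TNF is a leading gene (40.5% and 37.0% of myeloid-like cells in the uninjected areas, 7.9% and 6.0% in the mScarlet blebs). The part of either in these changes was not tested.

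The remaining lists were counted in the same fits of mScarlet blebs against uninjected areas. Of 12 immediate early genes 0 were called in myeloid-like cells (median log2 difference −0.71) and 4 rose in rods (FOS, JUN, JUND and DUSP1), beside 1.62% of all genes. Of the interferon-response genes 5 of 17 rose in rods (IRF1, IRF7, PSMB8, PSMB9 and BST2), 7 of 18 in bipolar-like cells (the same 5 with GBP3 and CXCL10), where 0.87% of all genes were called, and 3 of 22 in Müller-like cells (IRF1, GBP3 and CXCL10), where 0.281% were. With the eye as a replicate block 0 of the 4 immediate early and 2 of the 5 interferon-response genes in rods (BST2 and PSMB9) kept their call, and in Müller-like cells the call of IRF1 was lost. All 9 rod calls were lost on leaving out any 1 uninjected or mScarlet library, but such a fit leaves 1 library in a group and cannot decide on a call. In bipolar-like cells CXCL10, BST2 and IRF7, and in Müller-like cells CXCL10, were near 0 in the uninjected areas and, like IL18BP, passed the filter on low counts through the blebs, so their calls are a description: CXCL10 had 0 and 0 normalised CPM there in bipolar-like cells and 0.439 and 0.811 in Müller-like cells, while in bipolar-like cells BST2 had 1.49 and 0.354 and IRF7 1.49 and 1.06.

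In myeloid-like cells 1 of 22 interferon-response genes rose (PSMB8), the macrophage genes CD68 and GPNMB rose and the mannose receptor MRC1 fell, of 8 macrophage and dendritic cell genes tested. The granulocyte growth factor receptor CSF3R rose, of 6 monocyte and neutrophil genes, while 0 of 8 homeostatic microglial genes were called (median −0.84). These calls, beside 2.79% of all genes, were all lost without cluster 45, where 2 of 10157 genes were called. They were also lost without either uninjected area and without the left mScarlet bleb, but such fits leave 1 library in a group and cannot decide on a call.

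Finally, for each of the 9 genes the features with the most similar levels were found over 90 sums of 13 classes and 8 libraries, by Pearson's r of log2 CPM across sums that share libraries and cell makeup, as a description with no test. IL1RN was nearest to CD300LD (0.984) and LILRA1 (0.980), and IL1B to LILRA1 (0.970) and CLEC12A (0.970), all of them receptors of myeloid cells. PYCARD was nearest to RNASE6 (0.966), NLRP1 to CD180 (0.960), AIM2 to the leukocyte cytoskeletal gene WAS (0.955) and IL1A to CLEC6A (0.912). IL18 was nearest to the microglial genes CX3CR1 (0.902), TMIGD3 (0.901) and TREM2 (0.901), and NLRP3 to the complement receptor C5AR1 (0.866). IL6 had the weakest nearest feature, TUBB6 (0.813).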

How the data were processed

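Retinal punches were dissociated and sequenced with the 10x 5′ version 2 kit, 1 library for each area and eye. The deposited files hold whole UMI counts per gene and barcode, made by the authors with Cell Ranger on Mmul_10 with 3 transgene features added, with no normalization and no removal of free RNA. Of the features, 16678 carried a symbol in the files, 487 were given one by a reference table, and 9368 had an identifier only. No symbol among them was CASP1. The study itself corrected for free RNA, which was not done here, and free RNA levels are given beside the values in its place.

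Barcodes under 1500 UMIs, under 300 genes or over 20% mitochondrial UMIs were dropped. The automatic threshold of Scrublet marked at most 0.0196% of the cells of a library and had not worked, so the highest 0.8% of scores per 1000 cells were removed (8601 of 91796 cells, 9.37%). With scanpy 1.11.5 the remaining 83195 cells were clustered on 3000 variable genes without the 9 genes (6 of which had been among them), 40 principal components, 15 neighbours and Leiden resolution 2.0. Clusters were named from markers chosen earlier, by a rule of counting that was set after the clusters had been seen. The members and lists were chosen with earlier results of these data known.

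Counts were summed per class and library, for classes of at least 50000 UMIs in a library, and edgeR 4.0.16 was run on the 6 libraries of NHP2 (quasi-likelihood, TMM factors, filter on low counts, area as the term) in R 4.3.3, at a Benjamini-Hochberg adjusted p of 0.05. The edgeR fit of mScarlet blebs against uninjected areas had been tested on simulated counts. Normalised CPM values use the TMM factors. The SE given with an edgeR log2 difference is its absolute value divided by the square root of the test's F statistic. Total UMIs were 90634306 to 146519011 per library over all barcodes, of which the kept cells held 56783364 to 80359333. Poisson intervals, at 95%, and the level that 3 UMIs would give cover counting error only. NHP1 entered no test. Libraries with the same number are the same eye of 1 animal, so the numbers pair them. The correlation over genes of the left minus right difference between areas was −0.33 to 0.25 in rods, −0.11 to 0.05 in myeloid-like, −0.0003 to 0.18 in Müller-like and −0.01 to 0.02 in bipolar-like cells.

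The genes named are the members, each called gene of the lists, up to 4 genes of each list with the most UMIs, and the 3 features most like each member. TNF, CXCL8 and IL18BP are given with values because they were called. Alternatives were DESeq2 1.42.0, its size factors in edgeR, no filter on low counts, cells of at least 3000 UMIs, a doublet share of 1.6% per 1000 cells, the eye as a replicate block, and leaving out each library. Myeloid-like cells without cluster 45 and rods with unnamed rod-marked clusters were added after seeing the data. Genome places are whole-gene spans and the counts do not resolve exons.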

Additional observations from a re-analysis of the deposited data

Results flagged for a closer look

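For IL18, mScarlet blebs lay above the uninjected areas of NHP2 in 1 cell class and below them in another. In myeloid-like cells the log2 ratio of the TMM-normalised CPM values was 0.18 (right eye) and 0.55 (left eye), and in rod-like cells it was −1.44 (right eye) and −1.51 (left eye). Both eyes had the same sign in each class, and the difference between the classes was not tested. In myeloid-like cells IL18 was not called, and its call in rods was lost with the eye as a replicate block and on leaving out any 1 of the compared libraries. The latter fits leave 1 library in a group and cannot decide on a call. The rod values in the blebs were below those of free RNA.

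Transgenes were found in libraries not labelled for their vector. The human RPE65 transgene was in 45.8% of cells of the left library labelled NHP1 uninjected, and the hRPGR transgene in 17.3% of cells of the right library labelled NHP2 uninjected and in 4.1% of cells of the right mScarlet bleb.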

How the results depend on the processing

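Of 257 alternative values of the named genes 218 kept their direction and their side of the threshold, 24 lost the call and 15 turned direction. Counts of called genes over all genes moved much more, and the cause was not tested. By DESeq2 the counts were 1529 in rods for mScarlet and 88 for hRPGR, 10 in bipolar-like cells for hRPGR, 400 and 25 in Müller-like cells, and in myeloid-like cells 461 for mScarlet, 14 for hRPGR, 154 between vectors and 14 between eyes. With no filter on low counts they were 1393 and 100 in rods, 584 and 98 in bipolar-like, 277 and 5 in Müller-like, and 1135, 234, 629 and 63 in myeloid-like cells. DESeq2 size factors gave 7 for bipolar hRPGR. Cells of at least 3000 UMIs gave 64 and 2 in Müller-like cells, and 167 for mScarlet and 0 between vectors in myeloid-like cells. The higher doublet share gave 2 for Müller hRPGR, and 91, 1, 0 and 0 in myeloid-like cells. With the eye as a replicate block they were 4 for rod mScarlet, 6 for bipolar hRPGR, 6 for Müller mScarlet and 5 for myeloid hRPGR, and the block changed no other call of a named member. The eye alone as a term gave 0 between eyes. Without cluster 45, an alternative chosen after seeing the data, there were 2 for mScarlet and 0 between vectors, and with the unnamed rod-marked clusters, also chosen after seeing the data, 33 for rod mScarlet.

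Leaving out 1 library each gave 0 to 1483 and 0 to 201 in rods, 38 to 172 and 0 to 27 in bipolar-like, 1 to 581 and 1 to 21 in Müller-like, and 2 to 216, 0 to 5, 0 to 105 and 15 to 64 in myeloid-like cells. For mScarlet in myeloid-like cells the NLRP3 log2 difference was −0.017 with cells of at least 3000 UMIs, −0.13 with the higher doublet share and −0.13 without cluster 45. Leaving out 1 library it ran from −0.074 to 0.25 for NLRP3, −0.066 to 1.34 for IL6, −0.24 to 3.14 for IL1A, −0.41 to 0.043 for IL1B, −0.69 to 0.076 for NLRP1 and −0.45 to 0.34 for PYCARD, none of them called. Between eyes IL1A was at −0.0070 with the higher doublet share and −0.012 to 1.07 without 1 library, and PYCARD at −0.42 to 0.066. IL1A and IL6 rest on at most 21 myeloid-like UMIs in each uninjected area, and 2 libraries per area of 1 animal limit every p-value.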

Other observations

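The unnamed clusters entered no main comparison, and those that carried rod markers entered only the alternative rod fit. In cells of the unnamed clusters IL18 was at 2.72 and 1.89 CPM in the right and left NHP1 libraries, 2.98 and 4.02 in the uninjected areas of NHP2 and 2.46 and 2.64 in the hRPGR blebs, against 3.57 and 1.03 in the mScarlet blebs. AIM2 in B-like cells was at 74.7 CPM in the right hRPGR bleb (9 cells) and 191 and 157 CPM in the right and left mScarlet blebs (33 and 61 cells). In plasma-like cells AIM2 was at 26.9 CPM in the right hRPGR bleb and 43.9 and 49.8 CPM in the mScarlet blebs. The uninjected areas of NHP2 held 1 and 3 plasma-like cells, with no AIM2 UMI among them, where 3 UMIs would have been 165 and 38.2 CPM.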
